A study of Mus musculus with 5 samples.

Results

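Translation initiation factors were described in RNA-seq of sorted mouse beta cells, the insulin-secreting cells of the pancreatic islets. Members were all rows of the deposited gene table whose symbol begins with Eif and a digit from 1 to 6, without the eIF4E binding proteins, the eIF2 alpha kinases and the Y-linked Eif2s3y. This gave 47 of 23951 rows, and the authors had tested 46 of them. The row left untested was Eif4e1b, an eIF4E paralogue at 0.181 FPKM in GFP and 0.189 FPKM in p16 cells.

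The p16 group held 3 samples, from Ins-rtTA/tet-GFP/tet-p16ink4a animals. The 2 samples of the GFP group came from Ins-rtTA/tet-GFP controls. Both groups thus carried an insulin-promoter activator and an inducible green fluorescent protein, and both received tetracycline for 10 days. The p16 mice carried in addition an inducible p16INK4a, an inhibitor of the cyclin D kinases. Fluorescent cells of dissociated islets were sorted, so the cells compared are those in which the inducible system was active. The design text names as many mice as samples in each group. The labels used here give no age, sex or strain background. The comparison asks which transcripts differ once beta cells express p16INK4a.

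Initiation factors bring the initiator methionyl-tRNA, the small ribosomal subunit and a capped mRNA together and set the ribosome on the start codon. eIF2 carries the initiator tRNA as a GTP-bound complex and eIF2B recharges it with GTP. eIF3 is a large scaffold on the small subunit, and eIF4F, made of the cap-binding eIF4E, the scaffold eIF4G and the helicase eIF4A, recruits the mRNA. Beta cells make insulin in large amounts, and phosphorylation of the alpha subunit of eIF2 lowers their protein synthesis under endoplasmic reticulum stress.

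Values are the authors' FPKM, fragments scaled by transcript length and library size, with 1 value per group and gene. No SD can be given, since sample values and library depths were not at hand. Whether groups differed was read from the p-values and q-values, which are p-values adjusted for multiple testing, of the authors' deposited table. Cdkn2a, the gene of p16INK4a, stood at 0.657 FPKM in GFP and 34.6 FPKM in p16 cells. Of 10 beta-cell markers, Ins1, Ins2 and Iapp carry a status for too many fragments and read 0 in GFP and p16 alike, and the other 7 summed to 4742 and 3605 FPKM in GFP and p16. Of these the glucose transporter gene Slc2a2 was called lower in the authors' deposited table. G6pc2, Slc30a8 and Ucn3 also had the lower value in p16 and were not called. G6pc2, at 3012 FPKM in GFP and 2327 FPKM in p16, made up the largest part of both sums. The transcription factor genes Pdx1, Mafa and Nkx6-1 had the higher value in p16 and were not called. Markers of delta and PP cells summed to 1816 and 3897 FPKM, those of alpha cells to 1648 and 2276 FPKM and those of duct cells to 153.03 and 503.9 FPKM, with 3, 1 and 3 members called higher in the authors' deposited table and the duct keratin Krt19 called lower. Acinar markers summed to 15.03 and 15.8 FPKM. The 4 endothelial markers summed to 0.50 and 0.525 FPKM, and none of them had been tested. The 4 immune markers summed to 0.308 and 2.01 FPKM, with Cd68 called higher in the authors' deposited table and the T cell gene Cd3e listed at 0 in both groups. The 4 stellate markers summed to 0.328 and 2.26 FPKM, with Col1a2 called higher in the authors' deposited table. The part of these other cells in the values below was not tested.

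The initiation factor genes were abundant, and no single one passed the authors' test between the groups. In the GFP group the 46 tested members ranged from 0.742 to 844.5 FPKM, with a median of 61.9 FPKM against 9.35 FPKM over all 13264 genes tested. In the p16 group their median was 62.2 FPKM. Of the 46, 44 lay above the median abundance of the tested genes. The most abundant was Eif1, the factor that holds the scanning ribosome open until the start codon is found. Eif4a2, a helicase of eIF4F, and Eif5a, a factor that eases peptide bond formation, came next. These levels are drawn for every member in the plot of FPKM by factor complex.

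**Figure D1:**
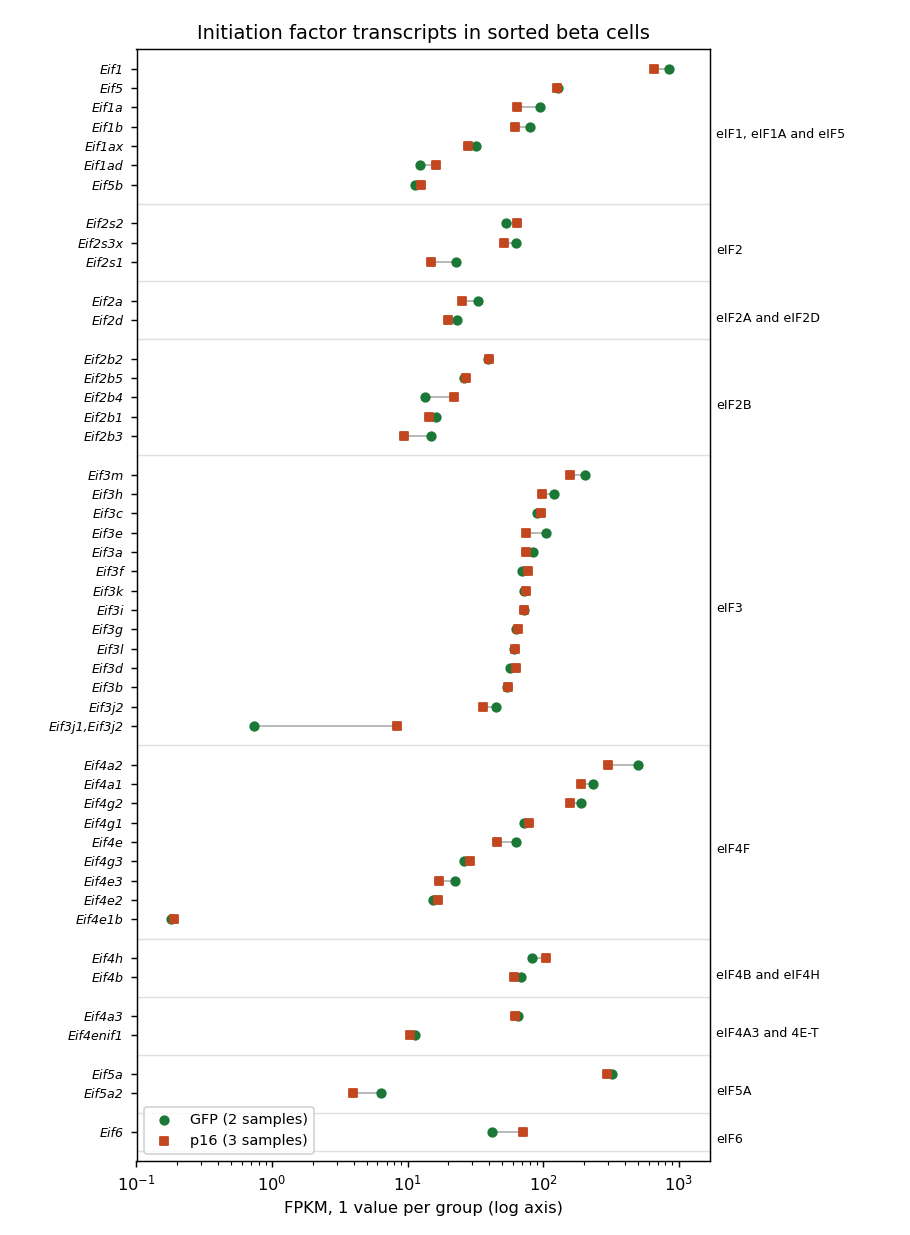
FPKM of each of the 47 members in the GFP group (green circles, 2 samples) and the p16 group (orange squares, 3 samples), 1 value per group, on a log axis and grouped by factor complex. Most pairs of points nearly touch; the joint row Eif3j1,Eif3j2 is the widest pair, from 0.742 to 8.35 FPKM.

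None of the 46 members passed a q of 0.05 in either direction in the authors' Cuffdiff test, where 5.42% of all genes tested did. By direction the authors' deposited table called 4.32% of these genes higher with p16 and 1.10% lower. At an unadjusted p below 0.05 there were 6 of 46 members, 1 with the higher and 5 with the lower value in p16, beside 17.2% of all genes in the authors' deposited table, with 10.2% higher and 7.01% lower. Among tested genes with a mean of at least 5 FPKM, which 45 of the members reach, 4.78% were called at a q below 0.05, 3.51% higher and 1.27% lower. At an unadjusted p below 0.05 these shares were 15.4%, 8.04% and 7.39%.

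Over the 46 members 26 had the lower value with p16 and 20 the higher, or 56.5% lower against 51.6% of all genes tested and 55.5% of those with a mean of at least 5 FPKM. The median log2 ratio of p16 over GFP was -0.13 for the members and -0.02 for all genes tested. For tested genes with a mean of at least 5 FPKM it was -0.055. The log2 ratio stayed within 0.5 of 0 in 38 members, or 82.6%, against 69.5% of all genes tested and 77.7% of those with a mean of at least 5 FPKM. The summed FPKM of the members was 4327 with GFP and 3723 with p16, and Eif4a2 and Eif1 had the largest differences in FPKM. The log2 ratio of these sums was -0.217, against -0.063 for the sums over all genes tested. FPKM is scaled by library size, so a lower sum is lower relative to the library and not a measured loss of RNA. In bulk RNA, fewer expressing cells, less RNA per cell and more RNA of other genes cannot be told apart.

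**Figure D2:**
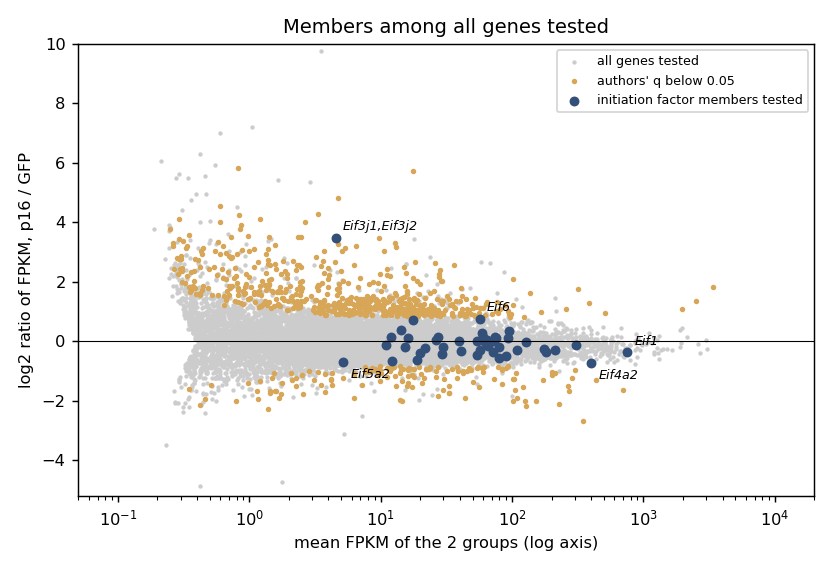
Log2 ratio of FPKM, p16 over GFP, against the mean FPKM of both groups (log axis) for all genes tested with a value above 0 in each group (grey), those with an authors' q below 0.05 (yellow) and the initiation factor members (blue). The members sit at the abundant end and near 0; the joint row Eif3j1,Eif3j2 stands apart at 3.49.

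The member with the smallest p was Eif6, which keeps the large ribosomal subunit from joining the small one too early and takes part in making that subunit. Eif6 lies on chromosome 2, 155645573 to 155652661, in the mm9 build, and no other row of the table overlaps it. It stood at 41.8 FPKM in GFP and 71.3 FPKM in p16 cells, or 1.71-fold higher (p = 0.0055 and q = 0.0796, above the threshold, in the authors' deposited table). The log2 ratio of 0.77 placed it at percentile 89.9 of all genes tested.

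Eif4a2 had the lowest p among members with the lower value. It encodes one of the paired eIF4A helicases that unwind the leader of an mRNA, and lies on chromosome 16, 23107541 to 23127803, in mm9. It stood at 500.4 FPKM in GFP and 301.8 FPKM in p16 cells, or 1.66-fold lower (p = 0.0107, q = 0.122 in the authors' deposited table). Its locus also holds the rows Snora81 and Snord2, small nucleolar RNAs, and overlaps Rfc4, so reads may have been assigned to either.

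Its paralogue Eif4a1 stood at 232.9 and 190.1 FPKM, with a log2 ratio of -0.29 (q = 0.643 in the authors' deposited table). Eif4a1 thus amounted to 0.465 of Eif4a2 in the GFP group and 0.63 in the p16 group, and Eif4a2 remained the more abundant transcript. Summed over both genes, eIF4A transcripts stood at 733.3 and 491.9 FPKM. Of the 50-base stretches of the Eif4a1 transcript 33.3% also occur in transcripts of other genes, chiefly the pseudogene Eif4a-ps4, so the authors' counting may have split its reads.

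The cap-binding protein gene Eif4e stood at 62.8 FPKM in GFP and 45.97 FPKM in p16 cells, a log2 ratio of -0.45 (p = 0.085, q = 0.377 in the authors' deposited table). Eif4e3, a paralogue, went from 22.4 to 17.2 FPKM and Eif4e2, a second one, from 15.5 to 16.8 FPKM. The scaffold gene Eif4g1 stood at 72.9 and 78.7 FPKM and Eif4g3 at 26.04 and 28.8 FPKM. Eif4g2, a scaffold paralogue that lacks the eIF4E binding region, was the most abundant eIF4G gene at 190.4 and 158.6 FPKM. No eIF4F gene passed. The 8 tested genes grouped here under eIF4F, these paralogues included, had a median log2 ratio of -0.28, with 5 lower and 3 higher in p16.

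Among the cofactors of the helicase, Eif4h stood at 83.1 and 105.3 FPKM and Eif4b at 68.7 and 61.5 FPKM. Eif4a3, a helicase of the exon junction complex rather than of initiation, stood at 65.6 and 62.4 FPKM. Of its 50-base stretches 24.4% also occur in other genes' transcripts. Eif4enif1, which encodes the eIF4E transporter 4E-T, stood at 11.4 and 10.4 FPKM. Their log2 ratios ran from -0.16 for Eif4b to 0.34 for Eif4h.

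**Figure D3:**
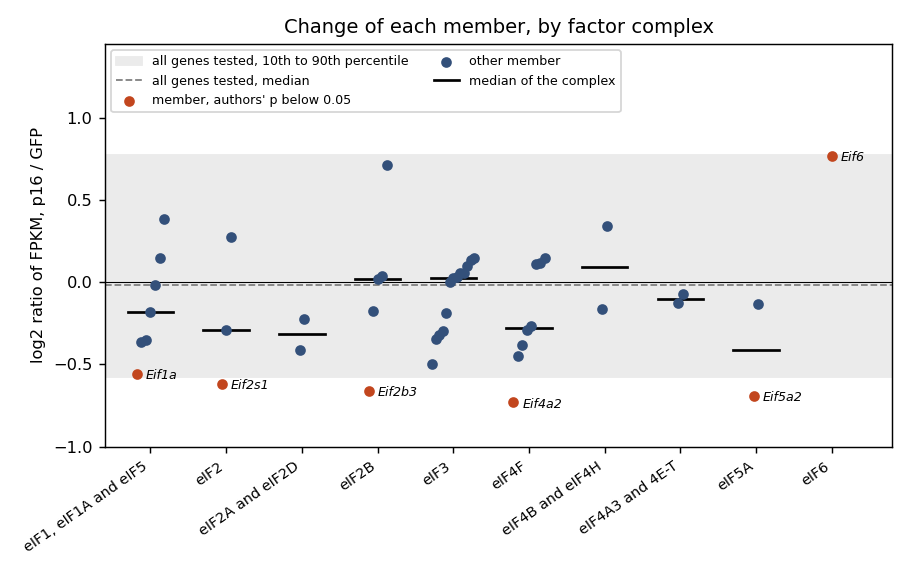
Log2 ratio of FPKM, p16 over GFP, of each tested member except the joint row Eif3j1,Eif3j2, by factor complex; orange points have an authors' p below 0.05, black bars are medians of complexes with more than 1 gene, and the grey band runs from the 10th to the 90th percentile of all genes tested. Of the points drawn, 4 named ones lie below the band, which starts at -0.57, and Eif6 lies just inside its upper edge of 0.78.

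Of the eIF2 subunits 2 had the lower value in p16 and 1 the higher, and none passed. Eif2s1, the alpha subunit that stress kinases phosphorylate, stood at 22.9 FPKM in GFP and 14.9 FPKM in p16 cells, or 1.54-fold lower (p = 0.0242, q = 0.196 in the authors' deposited table). The gene is on chromosome 12, 79963059 to 79987997, in mm9. Eif2s2, the beta subunit, had the higher value in p16, at 53.1 and 64.5 FPKM, and Eif2s3x, the X-linked gamma subunit, the lower, at 62.8 and 51.4 FPKM. The level of Eif2s1 was 0.432 of that of Eif2s2 in GFP and 0.232 in p16. Of the 50-base stretches of Eif2s3x 36.2% also occur in other genes' transcripts.

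In eIF2B, Eif2b3, the gamma subunit, was the gene with the smallest p. It stood at 14.9 FPKM in GFP and 9.47 FPKM in p16 cells, or 1.58-fold lower (p = 0.0297, q = 0.222 in the authors' deposited table), and lies on chromosome 4, 116692013 to 116759457, in mm9. The beta subunit Eif2b2 stood at 39.1 and 39.6 FPKM and the catalytic epsilon subunit Eif2b5 at 26.2 and 26.9 FPKM. The alpha subunit Eif2b1 stood at 16.3 and 14.4 FPKM. Eif2b4, the delta subunit, read 13.4 and 21.9 FPKM, a log2 ratio of 0.71 with p = 0.734 in the authors' deposited table. Its locus in that table overlaps 22 other rows, so its reads may belong in part to neighbours. The complex had 2 lower and 3 higher values and a median log2 ratio of 0.02.

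Eif2a and Eif2d encode single-chain factors that can bring initiator tRNA to the ribosome without eIF2. Eif2a stood at 33.3 and 25.1 FPKM and Eif2d at 23.2 and 19.9 FPKM, with q-values of 0.931 and 0.768 in the authors' deposited table. Both had the lower value in p16. The locus of Eif2a overlaps the row Serp1, so its reads may belong in part to that gene.

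No subunit of eIF3 passed. Leaving out subunit j, the 12 subunit genes ranged from 53.8 to 202.5 FPKM in GFP and from 54.96 to 159.3 FPKM in p16. Their log2 ratios ran from -0.50 to 0.15 with a median of 0.03, and none had a p below 0.05 in the authors' deposited table. Eif3m was the most abundant, at 202.5 and 159.3 FPKM, ahead of Eif3h at 120.3 and 98.2 FPKM. Of the 50-base stretches of Eif3h 26.2% also occur in other genes' transcripts. Eif3e, at 105.3 and 74.7 FPKM, had the log2 ratio furthest from 0 of these 12 (p = 0.0681, q = 0.34 in the authors' deposited table). Eif3b and Eif3i, core subunits that hold beta-propeller folds, stood at 53.8 and 54.96 FPKM and at 71.9 and 72.03 FPKM. Eif3a, the largest subunit, stood at 84.5 and 74.3 FPKM, and Eif3c at 89.6 and 96.1 FPKM.

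Subunit j is encoded by near-identical gene copies, which the table splits into a row for Eif3j2 and a joint row Eif3j1,Eif3j2 at the same locus. Eif3j2 stood at 45.2 and 36.2 FPKM and the joint row at 0.742 and 8.35 FPKM. The joint row had the largest log2 ratio of all members, 3.49, but p = 0.441 in the authors' deposited table. Summed, the rows gave 45.9 and 44.5 FPKM. Of the 50-base stretches of Eif3j2 91.8% also occur in another gene, chiefly Eif3j1, so the single values are uncertain.

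Among the factors of start codon choice, Eif1 stood at 844.5 and 661.4 FPKM and its paralogue Eif1b at 80.4 and 62.5 FPKM. The level of Eif1b relative to Eif1 was 0.0952 in GFP and 0.0945 in p16. Of the 50-base stretches of the Eif1 transcript 31.6% also occur in transcripts of other genes, so the authors' counting may have split its reads. Eif1a, which encodes an eIF1A protein, stood at 94.2 and 64.1 FPKM, or 1.47-fold lower (p = 0.0378, q = 0.252 in the authors' deposited table). The gene is on chromosome 18, 46757358 to 46769879, in mm9. Its X-linked copy Eif1ax stood at 31.9 and 28.1 FPKM. Eif5, the GTPase activator of eIF2, stood at 128.3 and 126.9 FPKM, and Eif5b, the GTPase of subunit joining, at 11.4 and 12.6 FPKM. Eif1ad, which encodes a protein with an eIF1A domain, read 12.3 and 16.1 FPKM at a locus that overlaps Banf1.

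Eif5a and Eif5a2 encode the hypusine-bearing factor eIF5A, the second being the rarer form. Eif5a stood at 321.7 and 294.1 FPKM (q = 0.885 in the authors' deposited table). Eif5a2 stood at 6.42 and 3.98 FPKM, or 1.61-fold lower (p = 0.0183, q = 0.168 in the authors' deposited table), and lies on chromosome 3, 28680233 to 28697768, in mm9. Eif5a2 amounted to 0.0199 of Eif5a in GFP and 0.0135 in p16. The enzymes that make hypusine, Dhps and Dohh, stood at 11.7 and 11.1 FPKM and at 27.05 and 36.04 FPKM.

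Members with GC-rich transcripts tended to have the higher log2 ratios. Over 45 members Spearman's rho between GC content and log2 ratio was 0.57, against 0.49 over 11596 tested genes with a mean of at least 1 FPKM. Members share the libraries of both groups with all other genes, and genes are not independent replicates. In the lowest of 5 GC bins of all these genes 12 of 14 members had the lower value in p16, in the middle bin 6 of 12 and in the highest 0 of 4. The median log2 ratio of all genes in those bins was -0.33, -0.06 and 0.29. The transcript of Eif6 had a GC content of 57.9%, while Eif4a2, Eif2s1, Eif1a and Eif5a2 had 40.2%, 40.8%, 39.97% and 38.8%. With the trend of GC content and length over all genes removed, the log2 ratio was 0.50 for Eif6, -0.38 for Eif4a2, -0.33 for Eif2s1, -0.21 for Eif1a and -0.45 for Eif5a2. Eif2b3, at 46.8% GC, kept -0.58 of -0.66. Eif2s2 went the other way, with 38.7% GC and a log2 ratio of 0.28 that became 0.57.

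**Figure D4:**
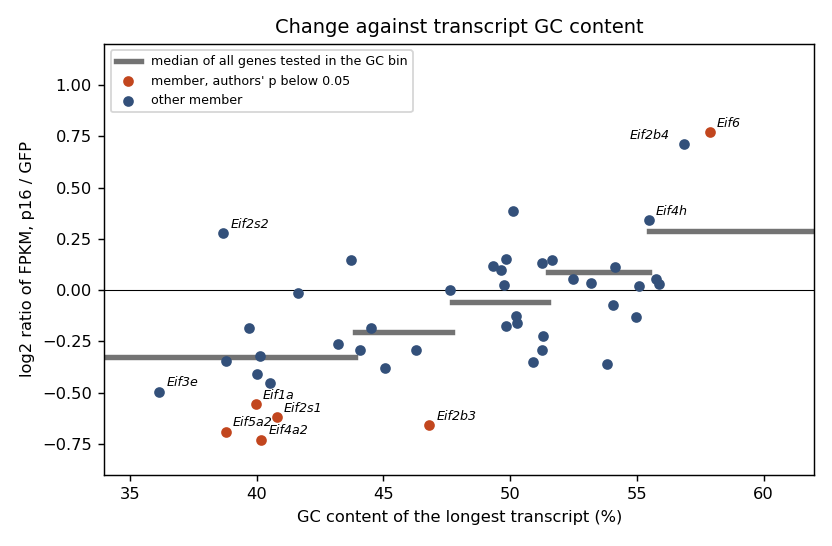
Log2 ratio of FPKM, p16 over GFP, against the GC content of the longest transcript of each tested member except the joint row Eif3j1,Eif3j2; orange points have an authors' p below 0.05, and grey bars are the medians of all genes tested with a mean of at least 1 FPKM in 5 GC bins, of which the outer ones are drawn only as far as the axis. Points follow the bars upward from left to right, with Eif2s2 above and Eif2b3 below.

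Promoter sequences are shown for genes of the cap complex and for Eif5a2, since they show which members hold an E-box. The E-box, searched as CACGTG, which reads the same on both strands, is the site bound by MYC and related factors. RefSeq windows of 300 bases, 250 before and 50 after an annotated start in GRCm38.p6, were at hand for 36 of the 47 members, in 48 windows, some of which overlap. An E-box was in 12 of these windows, or 25.0%, against 7.15% of all 32851 windows and 10.7% of those of tested genes with a mean of at least 5 FPKM. The 250 bases before the start are printed 5′ to 3′ with each E-box in capitals. They come from chr3:138527018-138527267 on the plus strand for Eif4e, which has 2 windows, from chr11:69672424-69672673 on the minus strand for Eif4a1, from chr16:23107218-23107467 on the plus strand for Eif4a2 and from chr3:28781027-28781276 on the plus strand for Eif5a2. These are coordinates of GRCm38.p6 and not of the mm9 build of the table.
Eif4e: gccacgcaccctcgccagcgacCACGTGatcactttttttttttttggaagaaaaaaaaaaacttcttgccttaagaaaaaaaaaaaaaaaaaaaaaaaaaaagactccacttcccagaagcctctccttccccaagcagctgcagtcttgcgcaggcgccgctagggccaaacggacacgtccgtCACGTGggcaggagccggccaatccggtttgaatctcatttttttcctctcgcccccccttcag
Eif4a1: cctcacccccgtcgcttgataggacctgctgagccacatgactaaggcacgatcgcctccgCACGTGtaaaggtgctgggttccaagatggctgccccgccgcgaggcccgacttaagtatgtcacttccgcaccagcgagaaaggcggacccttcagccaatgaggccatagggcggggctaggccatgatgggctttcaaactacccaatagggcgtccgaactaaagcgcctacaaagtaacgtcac
Eif4a2: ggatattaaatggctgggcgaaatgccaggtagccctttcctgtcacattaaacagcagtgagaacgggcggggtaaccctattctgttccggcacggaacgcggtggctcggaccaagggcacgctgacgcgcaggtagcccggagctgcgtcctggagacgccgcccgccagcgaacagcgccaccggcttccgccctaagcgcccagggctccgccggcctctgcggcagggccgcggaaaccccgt
Eif5a2: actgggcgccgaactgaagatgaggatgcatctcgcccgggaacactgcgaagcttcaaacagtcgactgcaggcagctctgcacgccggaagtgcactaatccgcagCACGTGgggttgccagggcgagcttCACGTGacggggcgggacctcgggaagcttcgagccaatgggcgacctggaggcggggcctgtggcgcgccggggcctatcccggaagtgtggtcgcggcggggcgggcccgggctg
Eif4e and Eif5a2 each held 2 E-boxes, Eif4a1 held 1, and these letters were not in the Eif4a2 window. Of the 10 member genes with an E-box in a window 6 had the lower value in p16, with a median log2 ratio of -0.16. Of the 26 without one 13 had the lower value, with a median of 0.00. An E2F site, searched as TTTGGCGC or TTTCGCGC on both strands, was in 2 member windows, those of Eif2d and Eif4enif1, or 4.17%, against 0.813% of all windows and 1.40% of those of tested genes with a mean of at least 5 FPKM. The ATF4 response element, searched as TGATGNAA on both strands, was in 1, that of Eif2s3x, or 2.08%, against 3.97% and 2.14%. The cyclic AMP response element, searched as TGACGTCA, was in 0 of 48 member windows, against 1.79% and 3.52%. A CCAAT box, searched as CCAAT on both strands, was in 13, or 27.1%, against 37.4% and 37.6%. A run of C and 4 pyrimidines that begins within 5 bases of the annotated start, read on the strand of the gene, was in 10, or 20.8%, against 18.3% and 19.6%. Of the 9 genes with that run 2 had the lower value in p16 and the median log2 ratio was 0.03. Among the other 27 genes 17 had the lower value, with a median of -0.16. Over all genes tested 51.6% had the lower value. GC content was not taken into account in these splits by motif. A match is a description of the letters only.

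Other genes of translation were set beside the members. Of 67 such genes, all tested, 2 were called in the authors' deposited table, both higher in p16, a share below the 5.42% of all genes tested. Both calls were regulators of initiation factors: Eif4ebp1, whose protein binds eIF4E and keeps it from eIF4G, and Eif2ak3, the endoplasmic reticulum kinase of eIF2 alpha. The level of Eif4ebp1 was 0.142 of that of Eif4e in GFP and 1.03 of it in p16. Transcripts of all 3 eIF4E binding proteins amounted to 0.616 of Eif4e in GFP and 1.87 in p16. Eif4ebp2 stood at 24.5 and 30.3 FPKM and Eif4ebp3 at 5.28 and 8.39 FPKM, and neither passed. All 5 genes of binding proteins and eIF4E kinases had the higher value in p16, with a median log2 ratio of 0.67. Over all genes tested 6418 of 13264 had the higher value. The median GC content of the 5 genes was 52.7%, against 49.7% over all genes tested. The GC content trend was not removed from the ratios of these lists.

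The other kinases of eIF2 alpha did not pass. Eif2ak1, the heme-regulated kinase, stood at 21.3 and 20.4 FPKM, Eif2ak2, the kinase of double-stranded RNA, at 7.16 and 6.57 FPKM, and Eif2ak4, the amino acid sensor GCN2, at 4.84 and 5.91 FPKM. Ppp1r15a, the stress-induced phosphatase subunit that reverses their action, stood at 206.9 and 134.1 FPKM (p = 0.038, q = 0.253 in the authors' deposited table). Beside kinases and phosphatase subunits the list of 9 genes holds Gcn1l1 and Impact, and its median log2 ratio was -0.12.

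Of 18 other initiation cofactors none was called in the authors' Cuffdiff test, and at an unadjusted p below 0.05 there were 3, all lower in p16. They were Paip1 and Paip2, partners of the poly(A)-binding protein, and Mcts1, a partner of Denr in recycling. Over all genes tested 17.2% had an unadjusted p below 0.05 in the authors' test, 10.2% higher and 7.01% lower in p16. The same shares stand beside the counts of the lists that follow. Paip2 stood at 243.5 and 167.9 FPKM and the helicase gene Ddx3x at 231.1 and 185.1 FPKM. Of 13 genes listed with the elongation and release factors, not all of which are such factors, none was called. Of these only Eef1e1 had an unadjusted p below 0.05. Eef1a1 stood at 2025 and 1780 FPKM and Eef2 at 466.8 and 500.1 FPKM, with a median log2 ratio of the list of -0.04. Of 2 mitochondrial initiation factors none was called, with 1 at an unadjusted p below 0.05. That was Mtif2, at 14.1 and 8.57 FPKM, while Mtif3 stood at 6.02 and 7.16 FPKM. Of 20 cytosolic aminoacyl-tRNA synthetases none was called, with 3 at an unadjusted p below 0.05, all higher in p16. The median log2 ratio of the 20 was 0.18, with 13 of 20 higher, beside 6418 of all 13264 genes tested. The most abundant synthetase genes were Gars at 111.8 and 110.1 FPKM and Nars at 69.02 and 90.1 FPKM.

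**Figure D5:**
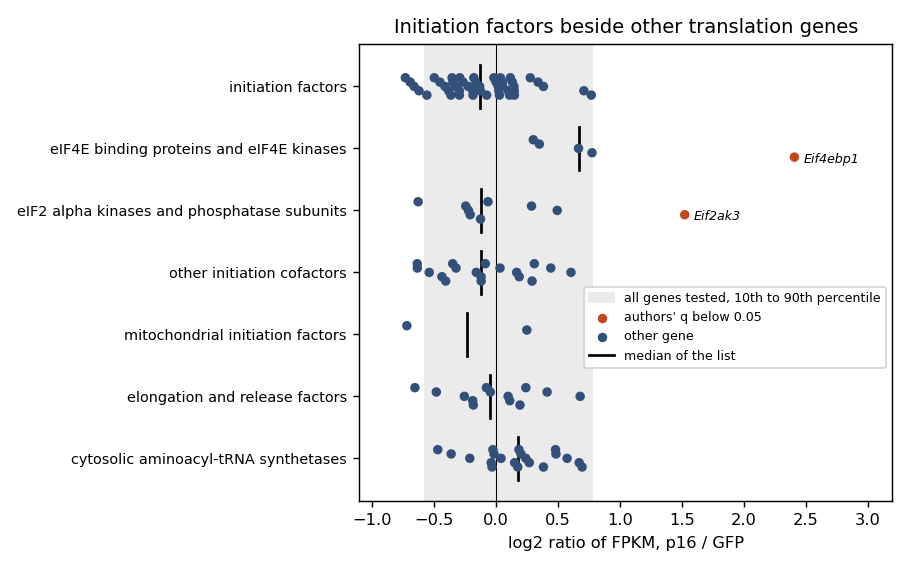
Log2 ratio of FPKM, p16 over GFP, of the tested initiation factor members except the joint row Eif3j1,Eif3j2 and of 6 lists of other translation genes; orange points have an authors' q below 0.05, black bars are list medians and the grey band runs from the 10th to the 90th percentile of all genes tested. Eif4ebp1 at 2.41 and Eif2ak3 at 1.52 stand to the right of the band; each initiation factor lies between -0.73 and 0.77.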

How the data were processed

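Total RNA of sorted fluorescent beta cells was sequenced in 3 p16 and 2 GFP samples. Per the submitters' processing notes, TopHat2, Cuffnorm and Cuffdiff were used with the mm9 build. Their versions, the annotation and the strand setting were not given in the sources at hand. The deposited table holds 1 FPKM per group and gene, with a p-value and a q-value made by the authors. FPKM is no count, so no count model was run, and depth per sample is unknown. Of 23951 rows, 13264 had been tested; Benjamini-Hochberg adjustment of the p-values over these gave the authors' q-values within 5.23e-07. Planned limma fits need values per sample and were not run.

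Log2 ratios were computed from FPKM without a pseudocount, and 1 was added to starts. Changes below an authors' q of 0.05 count as calls. Members, complexes, the lists of other translation genes and marker lists were chosen with earlier results of these data known, so no test was run over a list. Values are named for members with an authors' p below 0.05, for eIF2, eIF2B and eIF4F, for the 2 most abundant genes and the largest ratio at a mean of at least 5 FPKM in each complex, and for called or the 2 most abundant genes of other lists. Further genes were named after their values were seen. GC content, length and shared 50-base stretches came from the longest GENCODE M21 transcript, which is not of the mm9 build; 98.997% of tested genes matched a symbol. Splines (natural cubic) with 4 degrees of freedom for GC content and for log2 length were fitted on 11596 genes and explained 18.4% of the variance of the log2 ratio. Motifs were chosen after the table was seen. Trend removal, adjustment and quantile normalization were tested on simulated data. Python 3.11.15, numpy 2.4.6, pandas 2.3.3, scipy 1.17.1, patsy and matplotlib 3.10.9 were used.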

Additional observations from a re-analysis of the deposited data

How the results depend on the processing

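No paired analysis was possible because the deposited table holds 1 value per group; for the same reason no sample could be left out. The number of members called stayed at 0 in each direction at a q below 0.01 and with p adjusted over genes with a mean of at least 1 or 5 FPKM, where Eif6 had adjusted p-values of 0.084 and 0.0908; at a q below 0.10 it was 1 higher, Eif6. The median log2 ratio of the members lay between -0.14 and -0.04 under all alternatives run, one of which, leaving out loci that hold another row, was chosen after seeing the data. Members with the lower value numbered 25 with centring on the median of all genes tested, or 54.3% against 50% of all genes. With quantile normalization they numbered 24, or 52.2% against 53.9%. Without the GC content and length trend they numbered 29 of 45, or 64.4% against 59.4%. The median over all genes tested moved from -0.02 to -0.04 with quantile normalization and to -0.09 without the trend. With quantile normalization the median of the members, -0.036, was thus no lower than that of all genes tested, -0.044. With no spread between samples known, a move of over 0.1 on the log2 scale was taken as a change. Without the GC content and length trend the median log2 ratio was 0.034 for eIF1, eIF1A and eIF5, -0.11 for eIF2, -0.13 for eIF2B, -0.078 for eIF4B and eIF4H and 0.50 for eIF6. It was -0.11 for eIF4F with quantile normalization and -0.24 for eIF5A with a pseudocount of 5. The other 63 of 70 such values moved by 0.1 or less. Changes of single members were listed only for the 31 named by rule. Members named later, among them Eif1b, Eif1ax, Eif1ad, Eif5b, Eif3a, Eif3b, Eif3c, Eif3i and Eif3j2, were not covered. Among named members the sign turned without the trend for Eif2b2 (-0.15), Eif2b5 (-0.10), Eif3m (0.076), Eif4g1 (-0.24), Eif4g3 (-0.18) and Eif5 (0.22), with quantile normalization for Eif5 (0.0899) and Eif5a (0.028), and with centring for Eif5 (0.0036). A further 31 of 155 values of named members moved by over 0.1 with the sign kept. Beside those given with the GC content, values that moved by over 1.5 times were, without the trend, those of Eif4e (-0.24 from -0.45), Eif3e (-0.17 from -0.50), Eif2a (-0.10 from -0.41), Eif4h (0.091 from 0.34), Eif4e3 (-0.15), Eif4a1 (-0.16), Eif2s3x (-0.11), Eif2b4 (0.45), Eif2d (-0.34), Eif4a3 (-0.20) and Eif5a (-0.29). With quantile normalization they were those of Eif1 (-0.13 from -0.35), Eif3h (-0.18), Eif3m (-0.16), Eif4a1 (-0.14) and Eif4g2 (-0.070), and with a pseudocount of 5 that of Eif5a2 (-0.35). The cause was not tested. Unknown depth limits the low rows, Eif4e1b and the joint row Eif3j1,Eif3j2.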

Other observations

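Eif2s3y, the Y-linked copy of the eIF2 gamma subunit that the choice of members leaves out, stood at 23.3 FPKM in GFP and 8.87 FPKM in p16 cells (q = 0.0343 in the authors' deposited table). Other Y-linked genes also had the lower value in p16, with Ddx3y at 24.5 and 11.5 FPKM, Uty at 6.32 and 3.17 FPKM and Kdm5d at 2.87 and 1.39 FPKM, none of which passed. Xist, which coats the inactive X chromosome, stood at 3.50 and 9.56 FPKM (q = 0.00441 in the authors' deposited table). Relative to Eif2s3x the level of Eif2s3y was 0.37 in GFP and 0.173 in p16. The sex of the mice is not given in the labels, and its part in the values of the X-linked members Eif2s3x and Eif1ax was not tested.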
